A study of Homo sapiens with 12 samples.

Results

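The PRDM genes measured here are 9 members of the family, PRDM1, PRDM2, PRDM4, PRDM8, PRDM10, PRDM11, PRDM15, PRDM16 and MECOM, taken by symbol from the 26364 genes counted in each library. All 9 were among the 12858 genes tested, PRDM1 only through its reads in the libraries that overexpress it. It is counted among the 9 in every comparison. PRDM proteins pair a PR domain, which is related to the SET domain of histone methyltransferases, with an array of zinc fingers that binds DNA, and most of them act on transcription by recruiting chromatin enzymes. PRDM1, also called BLIMP1, is the best known: it silences the B cell programme as plasma cells form, and in the mouse it keeps the fetal intestinal epithelium in its immature state. It is made in a full-length alpha form and in a shorter beta form that begins further downstream and lacks part of the PR domain.

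The cells were RKO, an established human colon carcinoma line, and the question was how its transcripts differ when PRDM1 is gained or lost. The 12 libraries of polyadenylated RNA fell into 6 groups of 2: RKO overexpressing PRDM1 alpha, RKO overexpressing PRDM1 beta, RKO overexpressing GFP, the CRISPR/Cas9 PRDM1 knockout derivatives KO2 and KO5, and PRDM1 wild type RKO. The labels name no vector, promoter, guide or clone. They do not say whether paired libraries were separate cultures, so every p-value below measures only the spread between those libraries, which may be technical. With 1 line for each overexpressed construct and 2 knockout lines, a difference made by PRDM1 cannot be told apart from one that arose in deriving the line.

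Gene counts ranged from 19058967 to 55961821 per library. Levels are given as CPM, which are read counts relative to library size, with the sizes adjusted by the TMM method. Fold changes are log2 values ± standard error from edgeR's quasi-likelihood fit of all 12 libraries, and a gene counts as risen or fallen where the Benjamini-Hochberg adjusted p over all genes tested was under 0.05. Of 7 epithelial markers, KRT8, KRT18 and CDX2 were read in quantity, while EPCAM had no read in any library and CDH1, KRT19 and VIL1 had at most 2 in any. Their summed level was 815 to 823 CPM in alpha, 927 to 928 CPM in beta, 892 to 924 CPM in GFP, 1019 to 1047 CPM in KO2, 1133 to 1203 CPM in KO5 and 970 to 987 CPM in wild type cells. The leukocyte markers PTPRC, CD3E and CSF1R had at most 1 read in any library (SDC1, which epithelia also express, had 2108 to 6408), and the endothelial markers PECAM1 and VWF at most 3. Of the fibroblast markers, DCN had none and COL1A2 at most 2, while COL1A1 had 152 to 458. Their summed level, nearly all COL1A1, was 9.59 to 9.96 CPM in alpha, 6.68 to 7.96 CPM in beta, 5.78 to 5.92 CPM in GFP, 5.12 to 6.08 CPM in KO2, 5.81 to 6.20 CPM in KO5 and 6.47 to 8.08 CPM in wild type cells. COL1A1 rose with alpha by 0.74 ± 0.12 against GFP and had 0.31 ± 0.13 with beta (edgeR's quasi-likelihood test, adjusted p = 3.69e-06 and 0.0554; with beta 0.45 and called without beta replicate 2). Against wild type it had -0.39 ± 0.11 in KO2 and -0.31 ± 0.11 in KO5 (edgeR's quasi-likelihood test, adjusted p = 0.00347 and 0.0185). Both calls were lost without wild type replicate 2 (-0.20 and -0.11) and under DESeq2's Wald test (adjusted p = 0.0629 and 0.135), that of KO2 without KO2 replicate 2 (-0.28), and that of KO5 without KO5 replicate 2 (-0.26) and with correction for GC content (-0.11). COL1A1 was also lower in GFP cells than in wild type, at -0.34 ± 0.12 (edgeR's quasi-likelihood test, adjusted p = 0.0314). The part of COL1A1 in the results below was not tested. In bulk RNA, fewer cells that express a gene and less of its RNA per cell cannot be told apart.

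Before the values, the promoters of MECOM are shown, because MECOM had the widest range of any member apart from PRDM1 and because PRDM1 is known to bind GAAAGT cores in the DNA of its targets. Windows of 250 bases before a transcription start were taken from RefSeq (GRCh38.p14); 8 of the 9 members had windows, 20 in all, and PRDM16 had none. The 3 windows of MECOM read as follows, 5′ to 3′ on the strand of the gene, with the match to GAAAGT in capitals.
MECOM, chr3:169146540-169146789, minus strand: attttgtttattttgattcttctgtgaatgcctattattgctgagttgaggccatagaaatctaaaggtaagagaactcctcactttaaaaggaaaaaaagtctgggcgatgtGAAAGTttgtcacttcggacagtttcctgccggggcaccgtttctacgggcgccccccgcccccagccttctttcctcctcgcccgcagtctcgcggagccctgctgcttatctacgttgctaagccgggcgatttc
MECOM, chr3:169147472-169147721, minus strand: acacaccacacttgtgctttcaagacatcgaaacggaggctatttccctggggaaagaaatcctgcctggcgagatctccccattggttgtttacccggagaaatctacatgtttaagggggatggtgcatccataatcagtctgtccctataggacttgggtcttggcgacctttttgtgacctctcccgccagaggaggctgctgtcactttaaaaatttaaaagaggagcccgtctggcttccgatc
MECOM, chr3:169663713-169663962, minus strand: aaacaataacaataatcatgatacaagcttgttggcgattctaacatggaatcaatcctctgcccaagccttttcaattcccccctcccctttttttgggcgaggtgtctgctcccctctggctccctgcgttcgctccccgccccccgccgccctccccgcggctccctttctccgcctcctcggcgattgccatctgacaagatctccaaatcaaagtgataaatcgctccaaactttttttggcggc
The search covered GAAAGT and the longer AGNGAAAG on both strands, and the letters of the longer one can overlap those of the shorter. The match in the first window spans bases 137 to 132 before the start. It was the only match to GAAAGT in the 20 windows, and none held AGNGAAAG. Of 35116 windows of the same length over all genes, 11.43% held GAAAGT and 6.567% held AGNGAAAG. A match describes letters in a window and is not a measurement of binding.

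PRDM1 itself was all but silent in RKO cells. The overexpressing libraries held 11475 and 9681 PRDM1 reads with alpha and 22395 and 28423 with beta, against 2 and 6 with GFP. The knockouts held 0 and 1 reads in KO2 and 1 and 1 in KO5, against 4 and 4 in wild type. Both overexpressing groups stood far above every other library, and each knockout library was below each wild type library by no more than 4 reads.

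Scaled to gene totals, PRDM1 was 3200 times as abundant in alpha as in GFP cells (95% exact binomial interval 1624 to 7414, counting error only). The same ratio was 7777 in beta over GFP cells (3947 to 18014). Since the GFP libraries held 8 PRDM1 reads together, these ratios rest on few reads: leaving out each library in turn gave 2218 (without GFP replicate 1) to 6148 (without GFP replicate 2) for alpha and 5390 to 14938 for beta, with the same libraries at the ends. Between the 2 forms the ratio was well determined. PRDM1 stood at 487 and 477 CPM in alpha cells, against 1173 and 1172 CPM in beta cells, a ratio of 0.412 (0.405 to 0.418) and a log2 fold change of -1.28 ± 0.03 (adjusted p = 3.83e-35, edgeR's quasi-likelihood test with Benjamini-Hochberg adjustment). Comparisons of alpha with beta below are therefore comparisons at unequal transcript levels, and counts per gene separate neither the forms nor introduced from endogenous transcripts.

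For knockout over wild type the ratio was 0.251 (0.0429 to 1.05), from 3 reads in 4 knockout libraries against 8 in 2 wild type libraries. The interval includes equality, and PRDM1 did not pass the test (edgeR's quasi-likelihood test, adjusted p = 0.0735). PRDM1 entered that test only because the alpha and beta libraries carried it past the filter on low counts. Without one library at a time the ratio lay between 0.198 and 0.368. A transcript count does not show whether the coding sequence was edited.

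**Figure D1:**
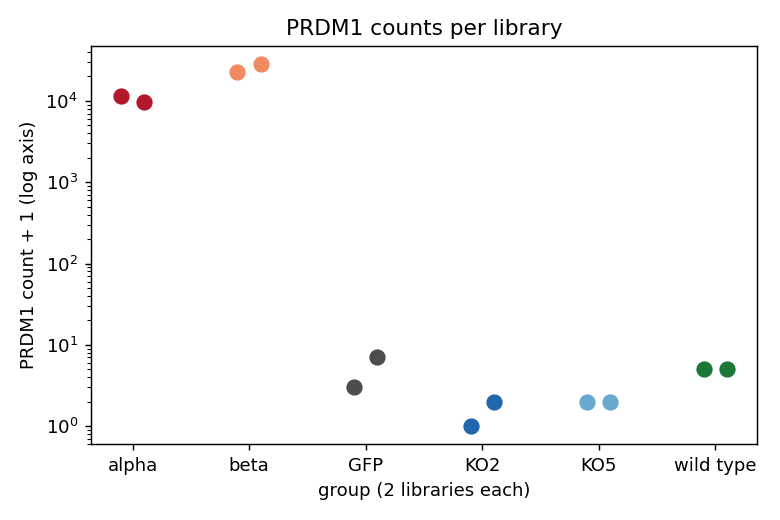
PRDM1 reads per library, plus 1, on a log axis, with each point 1 library and 2 libraries per group. The alpha and beta libraries hold 9681 to 28423 reads, and the GFP, KO2, KO5 and wild type libraries hold 0 to 6.

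Per kilobase of exon, the scale on which genes can be compared, the 9 members spanned a wide range of levels in wild type RKO. PRDM4, which recruits the arginine methyltransferase PRMT5 in mouse neural stem cells, was highest at 16.8 CPM per kilobase in both libraries. PRDM2, also known as RIZ, a histone H3 lysine 9 methyltransferase and candidate tumour suppressor, had 4.21 and 4.12 CPM per kilobase. Next came PRDM16 at 3.68 and 3.85, MECOM at 3.66 and 3.34, PRDM10 at 3.49 and 3.50, and PRDM15 at 3.02 and 2.91 CPM per kilobase.

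MECOM and PRDM10 overlapped in that order, and the lower PRDM16 library, at 3.68, lay just above the higher MECOM library, at 3.66. PRDM11 and PRDM8 lay far lower and overlapped, at 0.339 and 0.311 and at 0.292 and 0.329 CPM per kilobase. PRDM1 was last at 0.0192 and 0.0125. Exon lengths are from GENCODE v29 and stand in for whichever transcripts RKO makes. Of the members, PRDM4 alone shares exonic bases (169) with another annotated gene, an antisense one that the count files do not list, and whether reads were counted by strand is not given in the sources used here.

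**Figure D2:**
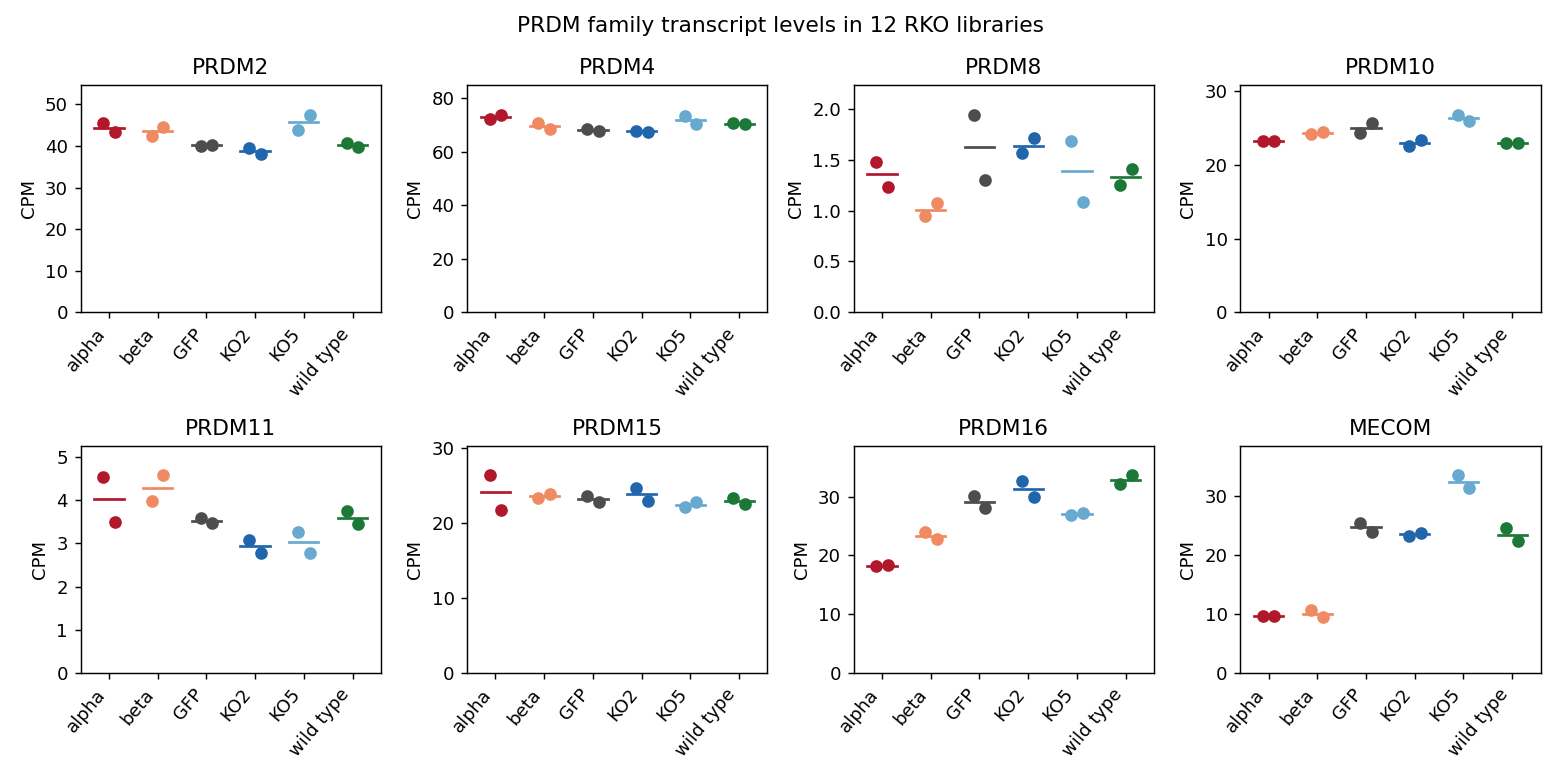
Level in CPM of 8 PRDM genes in each library, with points for libraries and bars for the mean of the 2 libraries of a group; each panel has its own axis starting at 0. MECOM lies between 9.40 and 10.7 CPM in the alpha and beta libraries and between 22.4 and 33.5 CPM in all others, and PRDM16 is lowest with alpha.

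Across the 6 groups, PRDM1 varied most, its group means covering 13.9 on the log2 CPM scale. The low end of that span, KO2, rests on 0 and 1 reads, so it depends on the prior count of 2 used for log2 CPM. MECOM followed with a span of 1.74, PRDM16 with 0.85, PRDM8 with 0.67 and PRDM11 with 0.54. PRDM2 covered 0.24, PRDM10 0.20, PRDM4 0.11 and PRDM15 0.10. The members with the lowest counts, PRDM8 (18 to 80 reads per library) and PRDM11 (71 to 195), have the widest counting error.

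Both forms of PRDM1 were set against GFP to ask which members move when PRDM1 is supplied. MECOM and PRDM16 fell with alpha and with beta, and PRDM2 rose slightly with alpha. With alpha, 4 of 9 members passed, 2 higher (PRDM1 and PRDM2) and 2 lower (PRDM16 and MECOM), where 37.5% of all genes tested passed, 21.2% higher and 16.3% lower. With beta, 3 of 9 passed, PRDM1 higher and PRDM16 and MECOM lower, where 40.9% of all genes passed, 22.9% higher and 18% lower. PRDM1 was the gene supplied, so its rise followed from the design. Without it, 3 of 8 members (37.5%) passed with alpha and 2 of 8 (25%) with beta, beside 37.5% and 40.9% of all genes. The median log2 fold change of the 9 was 0.06 with alpha, beside 0.01 for all genes, and 0.03 with beta, beside 0.01. Both comparisons use the same GFP libraries.

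MECOM encodes EVI1, a zinc finger factor that maintains blood stem cells and acts as an oncogene in myeloid leukaemia; the longer MDS1-EVI1 form from the upstream start carries the PR domain and the shorter EVI1 form does not. MECOM had 9.63 and 9.72 CPM with alpha and 10.7 and 9.40 CPM with beta, against 25.4 and 23.9 CPM with GFP. Every PRDM1-overexpressing library was below every GFP library by a wide margin.

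The log2 fold change of MECOM was -1.35 ± 0.09 with alpha (edgeR's quasi-likelihood test, Benjamini-Hochberg adjusted p = 1.28e-18), a fall to 0.393 of the GFP level. With beta it was -1.30 ± 0.09 (edgeR's quasi-likelihood test, adjusted p = 4.47e-18), a fall to 0.405. Of the genes tested, 0.801% fell further with alpha and 1.28% with beta. In direct comparison, alpha minus beta was -0.05 ± 0.10 for MECOM (edgeR's quasi-likelihood test, adjusted p = 0.87), with a 95% interval of -0.25 to 0.16, so a difference in MECOM between the forms was not detectable within that range. MECOM had 197 to 228 reads in each alpha and beta library and 652 and 661 in the GFP libraries. Gene counts do not separate MDS1-EVI1 from EVI1.

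The nearest tested genes on either side of MECOM did not fall. GOLIM4 had log2 fold changes of -0.01 with alpha and 0.08 with beta, neither past the test (edgeR's quasi-likelihood test, adjusted p = 0.918 and 0.183). ACTRT3 had 0.20 with alpha (edgeR's quasi-likelihood test, adjusted p = 0.406) and rose by 0.49 ± 0.17 with beta (adjusted p = 0.0187).

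PRDM16, which specifies brown fat cells in the mouse and acts with the co-repressors CtBP1 and CtBP2, is the closest relative of MECOM in the family. It had 18.1 and 18.3 CPM with alpha and 24.1 and 22.7 CPM with beta, against 30.1 and 28.0 CPM with GFP. The 3 groups did not overlap, and alpha was the lowest of them.

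The log2 fold change of PRDM16 was -0.67 ± 0.07 with alpha (edgeR's quasi-likelihood test, adjusted p = 3.26e-11), a fall to 0.628 of the GFP level. With beta it was -0.32 ± 0.07 (edgeR's quasi-likelihood test, adjusted p = 0.00012), a fall to 0.804. Alpha minus beta was -0.36 ± 0.08 (edgeR's quasi-likelihood test, adjusted p = 0.000979), so PRDM16 was lower with the form that had fewer PRDM1 transcripts. Set directly against each other, alpha and beta differed at 2 of 9 members, PRDM1 and PRDM16, both lower with alpha, where 6.24% of all genes passed, 3.45% higher and 2.79% lower. Leaving out PRDM1, the gene supplied, 1 of 8 members differed. The nearest tested genes beside PRDM16 were LINC00982 and ARHGEF16. LINC00982 had -0.52 ± 0.28 with alpha and -0.29 ± 0.27 with beta, and ARHGEF16 had 0.08 and 0.12, none past the test (edgeR's quasi-likelihood test, adjusted p = 0.142, 0.404, 0.393 and 0.179).

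PRDM2 had 45.5 and 43.3 CPM with alpha and 42.4 and 44.7 CPM with beta, against 40.0 and 40.3 CPM with GFP. All 4 overexpressing libraries were above the GFP libraries, by a small step. The log2 fold change was 0.15 ± 0.06 with alpha (edgeR's quasi-likelihood test, adjusted p = 0.0268) and 0.12 ± 0.06 with beta (adjusted p = 0.071, or 0.046 with GC correction). The call with alpha was lost without alpha replicate 1 (log2 fold change 0.11), without GFP replicate 1 (0.14) and without GFP replicate 2 (0.14), with only the compared libraries in the fit (adjusted p = 0.0563) and under DESeq2's Wald test (adjusted p = 0.119). It rests on each of those choices.

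The other 5 members did not pass against GFP with either form. PRDM8, which forms a repressor complex with BHLHB5 in mouse neurons, had 1.48 and 1.23 CPM with alpha and 0.943 and 1.07 CPM with beta, against 1.95 and 1.30 CPM with GFP. The beta libraries lay below both GFP libraries, and the alpha libraries overlapped them. Its log2 fold change was -0.24 ± 0.26 with alpha and -0.67 ± 0.29 with beta (edgeR's quasi-likelihood test, adjusted p = 0.52 and 0.0545). Without GFP replicate 2 the beta value was -0.95 and passed. PRDM8 also passed narrowly with beta under DESeq2 size factors (adjusted p = 0.0496) and with only the compared libraries in the fit (0.0497).

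PRDM11, which lacks most of the zinc fingers of its relatives, had 4.54 and 3.50 CPM with alpha and 3.98 and 4.58 CPM with beta, against 3.58 and 3.47 CPM with GFP. The alpha and GFP libraries overlapped and the beta libraries lay above GFP. The log2 fold changes were 0.20 ± 0.16 and 0.29 ± 0.16 (edgeR's quasi-likelihood test, adjusted p = 0.356 with alpha and 0.151 with beta). PRDM4, PRDM10 and PRDM15, the last a factor of naive pluripotency in the mouse, had changes between -0.10 and 0.10 in both comparisons. The lowest adjusted p among them was 0.0562, for PRDM4 with alpha at 0.10 ± 0.05, which passed once libraries were corrected for GC content (adjusted p = 0.0372).

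**Figure D3:**
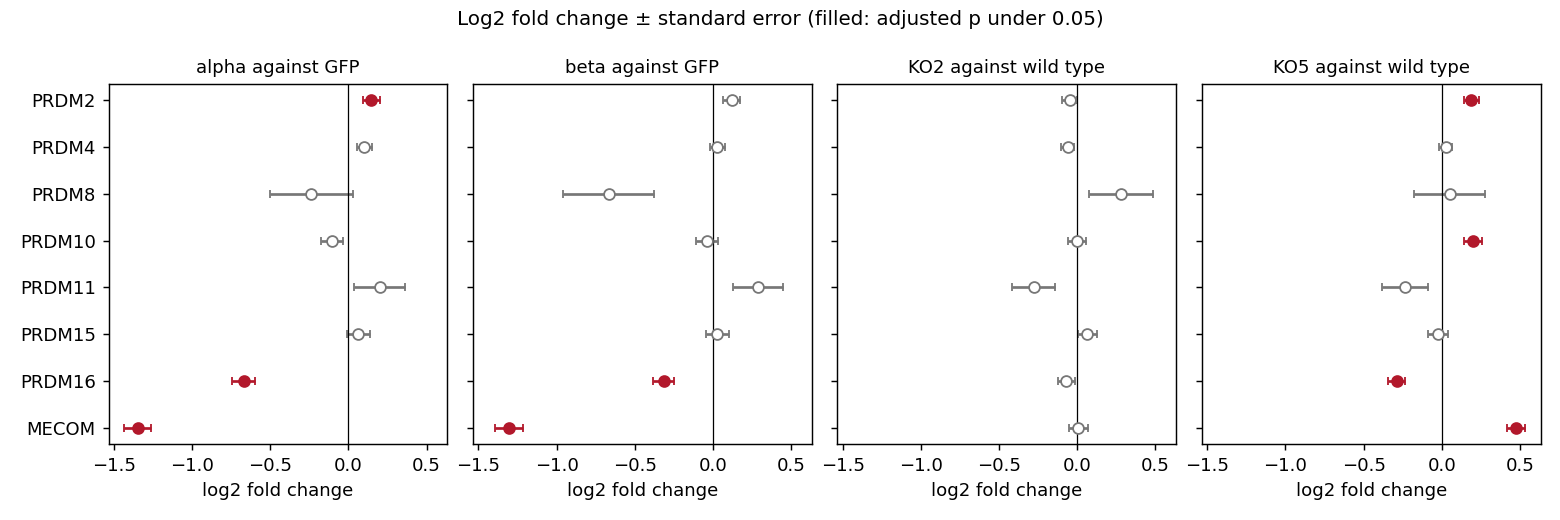
Log2 fold change ± standard error of 8 PRDM genes in 4 comparisons, with filled points where the adjusted p was under 0.05. MECOM is at -1.35 and -1.30 with alpha and beta against GFP and at 0.01 and 0.48 in KO2 and KO5 against wild type.

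The knockouts were set against wild type to ask which members differ where PRDM1 was knocked out, in a line with few PRDM1 transcripts to begin with. The 2 derivatives differed: no member passed in KO2, and 4 passed in KO5. In KO2 0 of 9 members passed edgeR's quasi-likelihood test, where 30% of all genes did, 15.1% higher and 14.9% lower; 2 had an unadjusted p under 0.05, PRDM1 and PRDM11, and DESeq2's Wald test called 0. Leaving PRDM1 aside, the log2 fold changes in KO2 lay between -0.28 and 0.28, with a lowest adjusted p of 0.122. In KO5 4 of 9 passed, PRDM2, PRDM10 and MECOM higher and PRDM16 lower, where 51.2% of all genes passed, 25.2% higher and 25.9% lower. The median over the 9 was -0.05 in KO2 and 0.03 in KO5, beside 0.00 for all genes in both. KO2 and KO5 share the wild type libraries.

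MECOM had 23.2 and 23.7 CPM in KO2 and 33.5 and 31.3 CPM in KO5, against 24.5 and 22.4 CPM in wild type. KO2 lay within the wild type range, and both KO5 libraries stood above all others. The log2 fold change was 0.01 ± 0.06 in KO2 (edgeR's quasi-likelihood test, adjusted p = 0.94), with a 95% interval of -0.11 to 0.12. In KO5 it was 0.48 ± 0.06 (edgeR's quasi-likelihood test, adjusted p = 2.31e-09). Set against KO2, KO5 was higher by 0.47 ± 0.06 (edgeR's quasi-likelihood test, adjusted p = 4.13e-09). The neighbour GOLIM4 was also higher in KO5 than in KO2, by 0.40 ± 0.05 (edgeR's quasi-likelihood test, adjusted p = 1.04e-10), and ACTRT3 had 0.08 (adjusted p = 0.696). The part of a change shared along the region was not tested.

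PRDM16 had 32.7 and 30.0 CPM in KO2 and 26.8 and 27.2 CPM in KO5, against 32.1 and 33.6 CPM in wild type. Only KO5 lay below wild type without overlap. The log2 fold changes were -0.07 ± 0.05 in KO2 and -0.29 ± 0.06 in KO5 (edgeR's quasi-likelihood test, adjusted p = 0.32 and 2.13e-05). KO5 minus KO2 was -0.22 ± 0.06 (edgeR's quasi-likelihood test, adjusted p = 0.000973). That call was lost without KO2 replicate 1 (log2 fold change -0.15) and with GC correction (-0.11, adjusted p = 0.081). The PRDM16 transcripts have 56.7% GC, above 75.0% of genes tested, and log2 fold changes of KO5 against KO2 fell with transcript GC over 12122 genes (Spearman's rho -0.41, a description across genes that are not independent). With the correction PRDM16 still passed in KO5 against wild type, at -0.17 (edgeR's quasi-likelihood test, adjusted p = 0.00668). MECOM transcripts have 43.3% GC, above 30.5% of genes tested, and with the correction the MECOM values were 0.40 in KO5 against wild type and 0.40 in KO5 against KO2.

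PRDM2 had 39.5 and 38.0 CPM in KO2 and 43.9 and 47.6 CPM in KO5, against 40.6 and 39.7 CPM in wild type. It rose in KO5 by 0.19 ± 0.05 (edgeR's quasi-likelihood test, adjusted p = 0.000876), a call lost without KO5 replicate 2 (0.13), and it was higher in KO5 than in KO2 by 0.24 ± 0.05 (adjusted p = 5.84e-05). PRDM10, which regulates the tumour suppressor gene FLCN, had 22.6 and 23.3 CPM in KO2 and 26.8 and 25.9 CPM in KO5, against 23.0 and 23.0 CPM in wild type. It rose in KO5 by 0.20 ± 0.06 (edgeR's quasi-likelihood test, adjusted p = 0.00259), and KO5 exceeded KO2 by 0.20 ± 0.06 (adjusted p = 0.00244). Between the derivatives 4 of 9 members passed, 3 higher and 1 lower in KO5, where 54.9% of all genes did, 26.9% higher and 28.1% lower.

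Averaged over the 2 derivatives with equal weight, knockout against wild type called 2 of 9 members, MECOM higher by 0.24 ± 0.05 and PRDM16 lower (-0.18 ± 0.05 on the log2 scale), with adjusted p = 0.000126 and 0.00141 by edgeR's quasi-likelihood test. Of all genes 36.3% passed, 17.3% higher and 19% lower. Both averages join a derivative that did not pass with KO5. Without wild type replicate 2 neither passed (MECOM 0.17 and PRDM16 -0.14), and 0 members were then called. With GC correction both passed, at 0.20 for MECOM and -0.12 for PRDM16.

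GFP was also set against wild type, since the overexpressing cells are read against GFP and the knockouts against wild type. PRDM16 was the 1 member of 9 that passed, where 19% of all genes did, 8.81% higher and 10.2% lower, with a log2 fold change of -0.18 ± 0.06 (edgeR's quasi-likelihood test, adjusted p = 0.0153). GFP cells had 30.1 and 28.0 CPM of PRDM16, against 32.1 and 33.6 CPM in wild type. The call was lost without GFP replicate 2 (-0.13), without wild type replicate 2 (-0.14), under DESeq2's Wald test (adjusted p = 0.0902) and with GC correction (-0.10, adjusted p = 0.439). Log2 fold changes of GFP against wild type ran with transcript GC at a Spearman's rho of -0.66 over the same 12122 genes, beside 0.18 for alpha and 0.14 for beta against GFP. MECOM had 0.08 ± 0.06 in GFP against wild type (edgeR's quasi-likelihood test, adjusted p = 0.396).

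The overexpressing arm (alpha and beta, equal weight) was also compared with the knockout arm, since the authors' own tables set each form against knockout. Here 4 of 9 members passed, PRDM1 and PRDM11 higher and PRDM16 and MECOM lower, where 58.8% of all genes did, 31% higher and 27.7% lower. Leaving out PRDM1, the gene supplied, 3 of 8 members passed. The log2 fold change was -1.49 ± 0.06 for MECOM, -0.50 ± 0.05 for PRDM16 and 0.48 ± 0.11 for PRDM11 (edgeR's quasi-likelihood test, adjusted p = 1.79e-27, 5.26e-13 and 0.000273). PRDM11 had 4.54 and 3.50 CPM with alpha and 3.98 and 4.58 CPM with beta, against 3.09 and 2.77 CPM in KO2 and 3.27 and 2.78 CPM in KO5. The arms did not overlap. PRDM11 did not pass when either form was read against GFP or either derivative against wild type, where its values were -0.28 ± 0.14 in KO2 and -0.24 ± 0.15 in KO5 (edgeR's quasi-likelihood test, adjusted p = 0.122 and 0.178).

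In the authors' deposited table for alpha against knockout, MECOM had a log2 fold change of -1.24 ± 0.16 (adjusted p = 1.26e-13) and PRDM16 -0.63 ± 0.11 (adjusted p = 5.89e-07), as deposited from DESeq2. In the authors' deposited table for beta against knockout, MECOM had -1.20 ± 0.16 (adjusted p = 2.59e-12) and PRDM16 -0.30 ± 0.11 (adjusted p = 0.0361), again by DESeq2. PRDM11 did not pass in either authors' deposited table, at 0.32 ± 0.18 for alpha and 0.41 ± 0.17 for beta (DESeq2 adjusted p = 0.222 and 0.0794). Which libraries entered those tables is not stated.

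The genes whose profile over the 6 group means of log2 CPM, centred on their own mean, came nearest to that of MECOM were ETV1, IVNS1ABP and BTN3A1. Likeness was the root mean square distance over the 6 groups, among genes with a group mean of at least 5 CPM, and the distances were 0.0322, 0.0740 and 0.125. ETV1, an ETS family transcription factor, followed MECOM through all 6 groups, with group means of 2.57 in alpha, 2.54 in beta, 3.88 in GFP, 3.79 in KO2, 4.23 in KO5 and 3.84 in wild type on the log2 CPM scale. MECOM had 3.28, 3.33, 4.63, 4.56, 5.02 and 4.55 in the same order. By the same measure the genes nearest to PRDM1 lay far from it: CPA4, a carboxypeptidase, SERPINB7, a serpin, and MMP3, a matrix metalloproteinase, were 2.80, 2.84 and 3.20 away. These distances depend on the prior count of 2 as well, since PRDM1 had few reads outside alpha and beta.

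**Figure D4:**
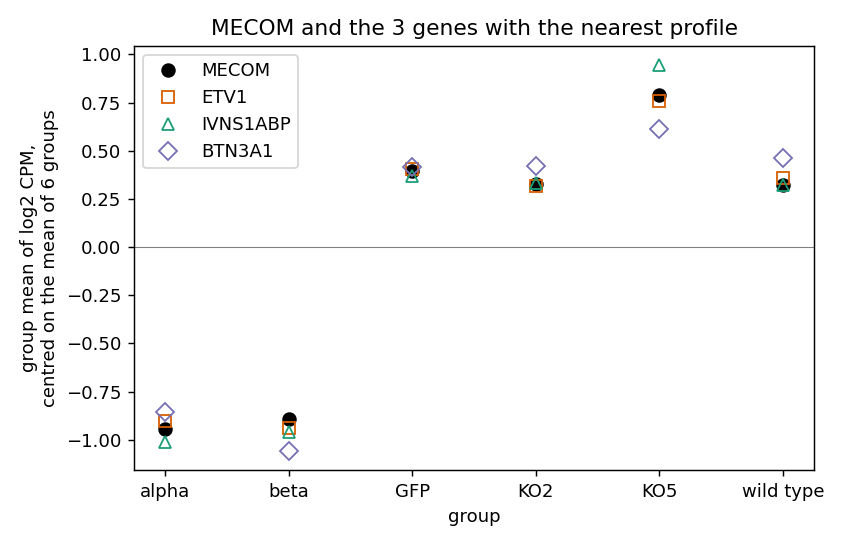
Group means of log2 CPM of MECOM, ETV1, IVNS1ABP and BTN3A1, each centred on its mean over the 6 groups. All 4 genes are below their own mean with alpha and beta and highest in KO5, and ETV1 lies 0.0322 from MECOM by root mean square distance.

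Among other genes with a PR domain, PRDM12 and ZNF408 were tested, and neither passed with alpha or beta against GFP or in knockout against wild type. PRDM6 and PRDM7 had at most 4 reads in any library, PRDM14 at most 1, and PRDM9, the factor that places meiotic recombination, and PRDM13 had none.

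The proteins that PRDM factors bind or depend on include chromatin enzymes and co-repressors, and all 23 genes listed for them were tested. With alpha, 9 rose and 8 fell, where 37.5% of all genes passed, with a median log2 fold change of 0.00 beside 0.01 for all genes. With beta, 9 rose and 8 fell, where 40.9% of all genes passed, with a median of 0.04 beside 0.01. TLE1, a Groucho co-repressor that binds PRDM1, rose by 0.97 ± 0.07 with alpha and 0.92 ± 0.07 with beta (edgeR's quasi-likelihood test, adjusted p = 4.51e-16 and 3.91e-15). SMAD3, a TGF-beta signal transducer that EVI1 binds and inhibits, had -1.08 ± 0.05 with alpha and -0.83 ± 0.05 with beta (edgeR's quasi-likelihood test, adjusted p = 2.52e-25 and 2.94e-21), a fall in both. Changes of the histone modifiers were small: HDAC3, a deacetylase, had -0.19 ± 0.04 with alpha and -0.23 ± 0.04 with beta. SKI, which represses SMAD-driven transcription, rose by 0.34 ± 0.04 and 0.40 ± 0.04.

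In knockout against wild type, 3 of these 23 genes rose and 7 fell, where 36.3% of all genes passed, with a median of 0.02 beside 0.00 for all genes. TLE4, RB1 and SUV39H2 were not called on that average, but each fell in KO2 and rose in KO5 against wild type. TLE4 had -0.37 ± 0.07 in KO2 and 0.51 ± 0.07 in KO5 (edgeR's quasi-likelihood test, adjusted p = 7.73e-05 and 2.92e-08). The 2 derivatives also differed at the genes with the lowest averages. CTBP1, a co-repressor that PRDM16 and EVI1 bind, averaged -0.48 ± 0.03, but it was at 0.00 ± 0.04 in KO2 and -0.97 ± 0.04 in KO5 against wild type (edgeR's quasi-likelihood test, adjusted p = 0.94 and 2.53e-24). TLE2, another Groucho gene, averaged -0.31 ± 0.06, with -0.09 ± 0.06 in KO2 and -0.54 ± 0.07 in KO5 (edgeR's quasi-likelihood test, adjusted p = 0.315 and 1.44e-08). Set against KO2, KO5 was lower at both, by -0.97 ± 0.04 for CTBP1 and -0.45 ± 0.07 for TLE2 (edgeR's quasi-likelihood test, adjusted p = 2.84e-24 and 8.54e-07). CTBP1 was also lower in GFP cells than in wild type, at -0.22 ± 0.04 (edgeR's quasi-likelihood test, adjusted p = 0.000134), a call lost with GC correction (-0.09, adjusted p = 0.235). HDAC2 rose in both derivatives, by 0.12 ± 0.04 in KO2 and 0.17 ± 0.04 in KO5 (edgeR's quasi-likelihood test, adjusted p = 0.00283 and 3.65e-05), the KO5 call being lost with GC correction (0.03). In GFP cells against wild type HDAC2 was also higher, at 0.09 ± 0.04, and TLE2 also lower, at -0.20 ± 0.07 (edgeR's quasi-likelihood test, adjusted p = 0.0484 and 0.0301). For both of these calls, other settings are not reported here. Over all genes, GC correction left 187 calls in GFP against wild type, against 2444 without it. Without wild type replicate 2, 5 of the 23 were called in place of 10.

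**Figure D5:**
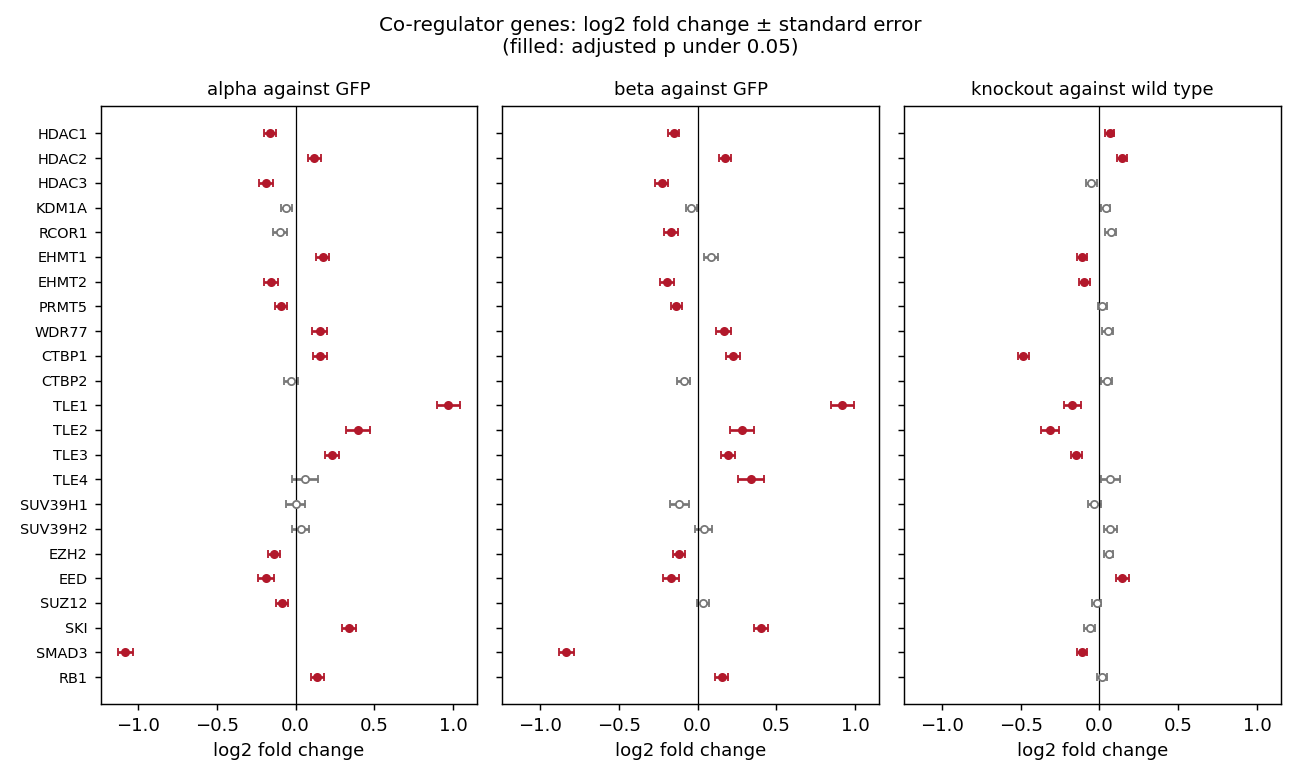
Log2 fold change ± standard error of 23 co-regulator genes with alpha and beta against GFP and in knockout against wild type, with filled points where the adjusted p was under 0.05. TLE1 is highest in the first 2 panels at 0.97 and 0.92 and SMAD3 lowest at -1.08 and -0.83, and CTBP1 is lowest in the third at -0.48, the average of 0.00 in KO2 and -0.97 in KO5.

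Of 12 genes that PRDM1 is known to repress in lymphocytes, 6 were tested; CIITA, PAX5, BACH2, CXCR5, CCR7 and IL2 had at most 3 reads in any library. With alpha 2 rose (FOS and TCF7), 2 fell (ID3 and MYC) and 2 did not pass, where 37.5% of all genes passed. MYC, at -0.09 ± 0.03, lost its call when alpha replicate 1 (-0.09), alpha replicate 2 (-0.10) or GFP replicate 2 (-0.06) was left out. With beta 2 rose (BCL6 and TCF7), 1 fell (ID3) and 3 did not pass, where 40.9% of all genes passed. ID3, an inhibitor of basic helix-loop-helix factors, had -1.11 ± 0.05 with alpha and -1.15 ± 0.05 with beta (edgeR's quasi-likelihood test, adjusted p = 2.25e-20 and 9.63e-21). TCF7, a Wnt pathway factor, rose by 0.34 ± 0.05 and 0.29 ± 0.05. In knockout against wild type 1 rose and 3 fell, where 36.3% of all genes passed; with any 1 of the 6 libraries left out, 2 of the 6 genes were called. FOS was not called on that average, but fell in KO2 by -0.48 ± 0.09 and rose in KO5 by 0.41 ± 0.09 (edgeR's quasi-likelihood test, adjusted p = 4.21e-05 and 7.23e-05). MYC rose on the average by 0.19 ± 0.03 (edgeR's quasi-likelihood test, adjusted p = 8.24e-08), and ID3 had -0.21 ± 0.03 (adjusted p = 1.25e-05), a fall. ID3 was also lower in GFP cells than in wild type, at -0.15 ± 0.04 (edgeR's quasi-likelihood test, adjusted p = 0.0123). That call was lost without GFP replicate 2 (-0.13), without wild type replicate 2 (-0.11), under DESeq2's Wald test (adjusted p = 0.0586) and with GC correction (-0.06).

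Of 7 genes for factors that act upstream of PRDM1 in lymphocytes, BATF had no reads and 6 were tested. JUN rose by 0.40 ± 0.06 with alpha and 0.65 ± 0.06 with beta, and STAT3 by 0.37 ± 0.04 and 0.30 ± 0.04 (edgeR's quasi-likelihood test, adjusted p = 3.23e-07, 2.9e-13, 4.19e-11 and 1e-08). The other 4 did not pass with either form, where 37.5% of all genes passed with alpha and 40.9% with beta. In knockout against wild type, averaged over the derivatives, 1 of the 6 (NFKB1) was called, where 36.3% of all genes passed. It was not called without wild type replicate 2, KO2 replicate 1 or KO5 replicate 2. That average joins opposite changes. NFKB1 had -0.13 ± 0.04 in KO2 and 0.34 ± 0.04 in KO5 (edgeR's quasi-likelihood test, adjusted p = 0.0124 and 2.66e-09). STAT3 had -0.14 ± 0.04 in KO2 and 0.15 ± 0.04 in KO5, and STAT5B 0.10 ± 0.04 and -0.16 ± 0.05, all called. JUN, RELA and IRF4 passed in neither derivative.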

How the data were processed

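Polyadenylated RNA of 12 RKO libraries was sequenced with a stranded kit, per the labels' protocols. TopHat, Bowtie2, Cufflinks and genome build hg19 are named per the submitters' processing notes; their versions and roles and the read counter are not given in the sources used here. The authors deposited whole-number counts per gene symbol without normalization. Of 26366 entries, 2 name no gene and entered neither library sizes nor tests: reads in no feature (9.13% to 10.8% of each library) and reads called ambiguous (1.66% to 1.75%). The deposited comparison tables hold log2 fold changes with standard errors, p-values, a score (the Wald statistic) and 1 other column, the mean of normalized counts, all made by the authors with DESeq2, per the file headers. The table labelled as overexpression in general duplicated the beta table, so it was left out.

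Counts were fitted in R 4.3.3 with edgeR 4.0.16 (filterByExpr, TMM, glmQLFit with robust estimation, glmQLFTest), with all 12 libraries in 1 fit and 9 comparisons, each with the Benjamini-Hochberg adjustment over 12858 genes at 0.05. Log2 CPM used a prior count of 2. Standard errors are Wald errors, with a quasi-likelihood dispersion of at least 1. A level of 3 reads, taken as the limit that a count of 0 allows, are 0.0536 to 0.157 CPM in these libraries. Intervals of the PRDM1 ratios cover counting error only, and reads are not independent molecules. Those of the MECOM fold changes are built from the standard errors of the fit. Replicates were compared first: the chi-square per degree of freedom was 1.68 to 2.77 within groups, so the 2 libraries of a group were not copies of each other. Libraries of different groups were not compared in this way. The procedure was tested on simulated data.

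Exon lengths and transcript GC content (94.3% of genes tested matched by symbol) came from GENCODE v29, and gene order from RefSeq. These references are on GRCh38, which is not the build of the files, and no coordinate of the files was converted. The alternatives were DESeq2 1.42.0 size factors, its Wald test, no low-count filter, a replicate block, a fit of the compared groups alone, PRDM1 left out before scaling, offsets for GC content, and each library left out in turn. For the PRDM1 ratios, TMM library sizes replaced gene totals. All 9 members are reported, with up to 3 rises and 3 falls of each gene list, of which the text gives part; some listed genes are not reported here. The members and lists were chosen with earlier results of these data known, so counts over them are descriptions.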

Additional observations from a re-analysis of the deposited data

Results flagged for a closer look

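KO5 and KO2 are both PRDM1 knockouts read against the same wild type libraries, and their effects differed at 4 of 9 PRDM genes by the direct comparison of KO5 with KO2. The difference was 0.47 for MECOM, 0.24 for PRDM2, 0.20 for PRDM10 and -0.22 for PRDM16 on the log2 scale (edgeR's quasi-likelihood test, adjusted p = 4.13e-09, 5.84e-05, 0.00244 and 0.000973). Of all genes tested, 54.9% also differed between the 2 derivatives.

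Alpha and beta, both read against GFP, differed directly at 2 members, of which PRDM1 was the gene supplied. PRDM1 differed by -1.28 and PRDM16 by -0.36 on the log2 scale, both lower with alpha (edgeR's quasi-likelihood test, adjusted p = 3.83e-35 and 0.000979), where 6.24% of all genes differed. Groups of 2 libraries are too small for a check of single libraries that stand apart.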

How the results depend on the processing

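MECOM and PRDM16 passed in alpha and in beta against GFP under every alternative run. Over 83 gene values and 580 values under other settings, 563 kept their direction and their side of the threshold, 12 lost the call, 4 gained it and 1 changed sign; with a library left out, 329 of 358 did, 18 lost it, 2 gained it and 9 changed sign. The cause was not tested for any of these. For GFP against wild type, 0 members passed with GC offsets and 0 under DESeq2's Wald test, against 1; over all genes the counts were 187 and 1501, against 2444. DESeq2's Wald test also called 441 genes against 802 for alpha against beta, and 2433 against 3857 for KO2 against wild type.

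Leaving out each library in turn, the members called numbered 3 to 4 for alpha and 3 to 4 for beta against GFP, 2 to 2 for alpha against beta, 0 to 3 for knockout, 0 to 0 for KO2, 3 to 4 for KO5 and 0 to 1 for GFP against wild type, 3 to 5 for KO5 against KO2 and 4 to 5 for overexpression against knockout. A group left with 1 library was assumed to vary like the others. Changes of sign, none of a value that had passed, were MECOM in KO2 against wild type (-0.0033 with GC offsets; -0.065 to 0.067 with a library left out), MECOM in alpha against beta (-0.14 to 0.041), PRDM8 (-0.52 to 0.072), PRDM11 (-0.0093 to 0.37) and PRDM15 (-0.088 to 0.19) in alpha against GFP, PRDM15 in beta against GFP (-0.0064 to 0.050), and CTBP1 in KO2 against wild type (-0.036 to 0.054).

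Replicate numbers did not pair the libraries: over 15 pairs of groups the correlations of same-numbered deviations were -0.0655 to 0.0564. With the replicate block the members called numbered 4 for alpha and 3 for beta against GFP, 2 for alpha against beta, 2 for knockout, 0 for KO2, 4 for KO5 and 1 for GFP against wild type, 4 for KO5 against KO2 and 4 for overexpression against knockout, the same counts as without it.

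Depth limits PRDM1 outside the overexpressing cells (0 to 6 reads), PRDM8 and PRDM11, and 2 libraries a group limit every comparison.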
